A study of Mus musculus with 6 samples.

Results

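Genes of sterol and fatty acid synthesis were followed in RNA of mouse splenic plasma cells, in IgG1-positive against IgM-positive cells. The set holds 32 listed genes, namely the enzymes from acetyl-CoA to cholesterol and to long-chain fatty acids, the SREBP (sterol regulatory element binding protein) transcription factors with the proteins that retain or escort them, and a sterol carrier. The genes were taken by symbol, and a gene counted as measured when its FPKM (fragments mapped to the gene, divided by transcript length and sequencing depth) reached 1 in 3 or more of the 6 libraries. All 32 met that limit, out of 9087 genes that met it among 24346 symbols. Both groups came from one kind of transfer. Congenically marked donor B cells of the B1-8germ strain, with an NP-specific heavy chain knocked in, went into wild-type C57BL/6J hosts, which were then immunised with NP-CGG/alum. Donor-derived plasma cells of the spleen were sorted at day 7 as IgG1 (3 libraries) or IgM (3 libraries). The sources used here do not give the age of the hosts or whether a library came from one animal or a pool, so p-values measure the spread between libraries, which may be partly technical. Every donor cell starts from a single knocked-in heavy chain, which limits how far these cells stand for a natural response.

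Cholesterol is built from acetyl-CoA through mevalonate and squalene, and fatty acids are built from acetyl-CoA by carboxylation, chain synthesis, desaturation and elongation. Both routes are switched on by the SREBP factors, which SCAP escorts from the endoplasmic reticulum (ER) to the Golgi for cleavage when sterols are low, and which the INSIG proteins hold back in the ER when sterols are high. INSIG1 is itself a target of SREBP. Plasma cells enlarge their ER to make antibody, and membrane lipid for that growth has to be made or taken up.

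All 9 listed plasma cell markers were measured, with summed FPKM of 36811 to 39375 in IgG1 and 44364 to 50221 in IgM libraries. Jchain, Mzb1 and Xbp1 made up most of each sum. Jchain was at 14208 to 16962 in IgG1 and 24812 to 28583 in IgM libraries, and Xbp1 at 6432 to 6862 and 5354 to 6021. Prdm1, Irf4, Tnfrsf17, Slamf7 and Cd28 were lower in every IgG1 than in every IgM library, and Mzb1 and Sdc1 overlapped. Tnfrsf17 was at 67.4 to 97.0 in IgG1 and 568 to 713 in IgM libraries. Groups did not overlap for 27.2% of all genes tested. The adipocyte markers Adipoq, Plin1, Cidec and Lep were at 0 in every library. The neutrophil and platelet lists summed to at most 1.11, the erythroid list to at most 2.80 and the dendritic cell list to at most 4.20. Summed markers were 0.961 to 9.18 in IgG1 and 1.10 to 3.45 in IgM for NK cells, and at most 7.29 for T cells. Macrophage and monocyte markers summed to 44.0 to 47.1 in IgG1 and 68.7 to 73.4 in IgM libraries, of which Cd68 made up 34.2 to 40.9 in IgG1 and 56.1 to 58.8 in IgM, while Adgre1 and Cd14 were at or near 0 and Csf1r was at most 0.0162 in IgG1 and 1.11 to 2.14 in IgM. The 10 B cell markers summed to 1689 to 2034 in IgG1 and 1326 to 1544 in IgM, led by Cd79b and Cd79a, and Pax5 was at 0. The part of these cells in the results below was not tested. Read counts were not used here. The most frequent low value of FPKM times length, taken as a single fragment, gave a rough depth. It was about 15500000 fragments in each IgG1 library and 16200000 to 17800000 in the IgM libraries. The joining chain gene Jchain took 1.55% to 1.93% of summed FPKM in IgG1 and 3.28% to 3.91% in IgM.

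Of the 32 genes 2 passed the test, 1 in each direction. Insig1, the sterol-dependent ER anchor of SCAP, was 1.95-fold lower in IgG1 cells, and Mvd, mevalonate diphosphate decarboxylase, was 1.94-fold higher. Both had an adjusted p under 0.05 in limma (Benjamini-Hochberg over all genes tested), and the other 30 did not. Over all genes tested 6.02% passed, 4.26% higher and 1.76% lower, so 2 of 32 (6.25%) is close to the background. The median log2 fold change, which is IgG1 minus IgM of FPKM + 1 throughout, was -0.03 over the 32 genes and -0.05 over all genes tested. Of the 32 genes 12 were positive, or 37.5%, against 46.3% of all genes. Summed FPKM over all symbols was 855123 to 914019 in IgG1 and 730695 to 806599 in IgM libraries. Rescaling the libraries to one sum without Jchain makes these totals, apart from Jchain, equal. It moved both medians of the log2 fold change to -0.25. The calls over all genes went from 387 higher and 160 lower to 177 and 393. The part of Jchain in that shift was not tested. Under that rescaling 0 of the 32 genes were called higher and 3 lower, namely Insig1, Idi1 and Elovl5, and Mvd had an adjusted p of 0.0987. Quantile normalization gave 188 and 200, and median centring 489 and 118. Without IgG1 library 2, IgM library 1 or IgM library 3 limma called 0 of the 32 genes, and 174, 108 and 230 of all 9087 genes. In those fits 6 of the 32 genes had an unadjusted p under 0.05 each time, against 1955, 1308 and 1503 of all genes. Without IgG1 library 1 limma called 3 of the 32 genes and 645 of all genes. In bulk RNA a smaller number of cells of a type and less RNA per cell cannot be told apart.

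In 9 of the 32 genes (28.1%) the 3 IgG1 libraries did not overlap the 3 IgM libraries, 4 higher and 5 lower in IgG1. Over all genes tested the groups did not overlap for 27.2%, with 13.7% in the higher direction and 13.5% in the lower, so these shares (12.5% and 15.6%) also lie near the background. With an unadjusted p under 0.05 added, 7 genes remained (21.9%, against 19.0% of all genes): Mvd and Mvk on the higher side, and Insig1, Idi1, Cyp51, Sqle and Elovl5 on the lower. The other 25 genes all had an unadjusted p of 0.05 or more, so their 95% intervals of the fold change held 0 by that choice. These intervals reached 0.28 to 1.46 to either side of the estimate on the log2 scale. A change as large as a gene's own reach lies within its interval in the direction of its estimate, but not in the other direction. The sign changed in at least 1 of the 18 alternative settings for 20 of the 25 genes.

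**Figure D1:**
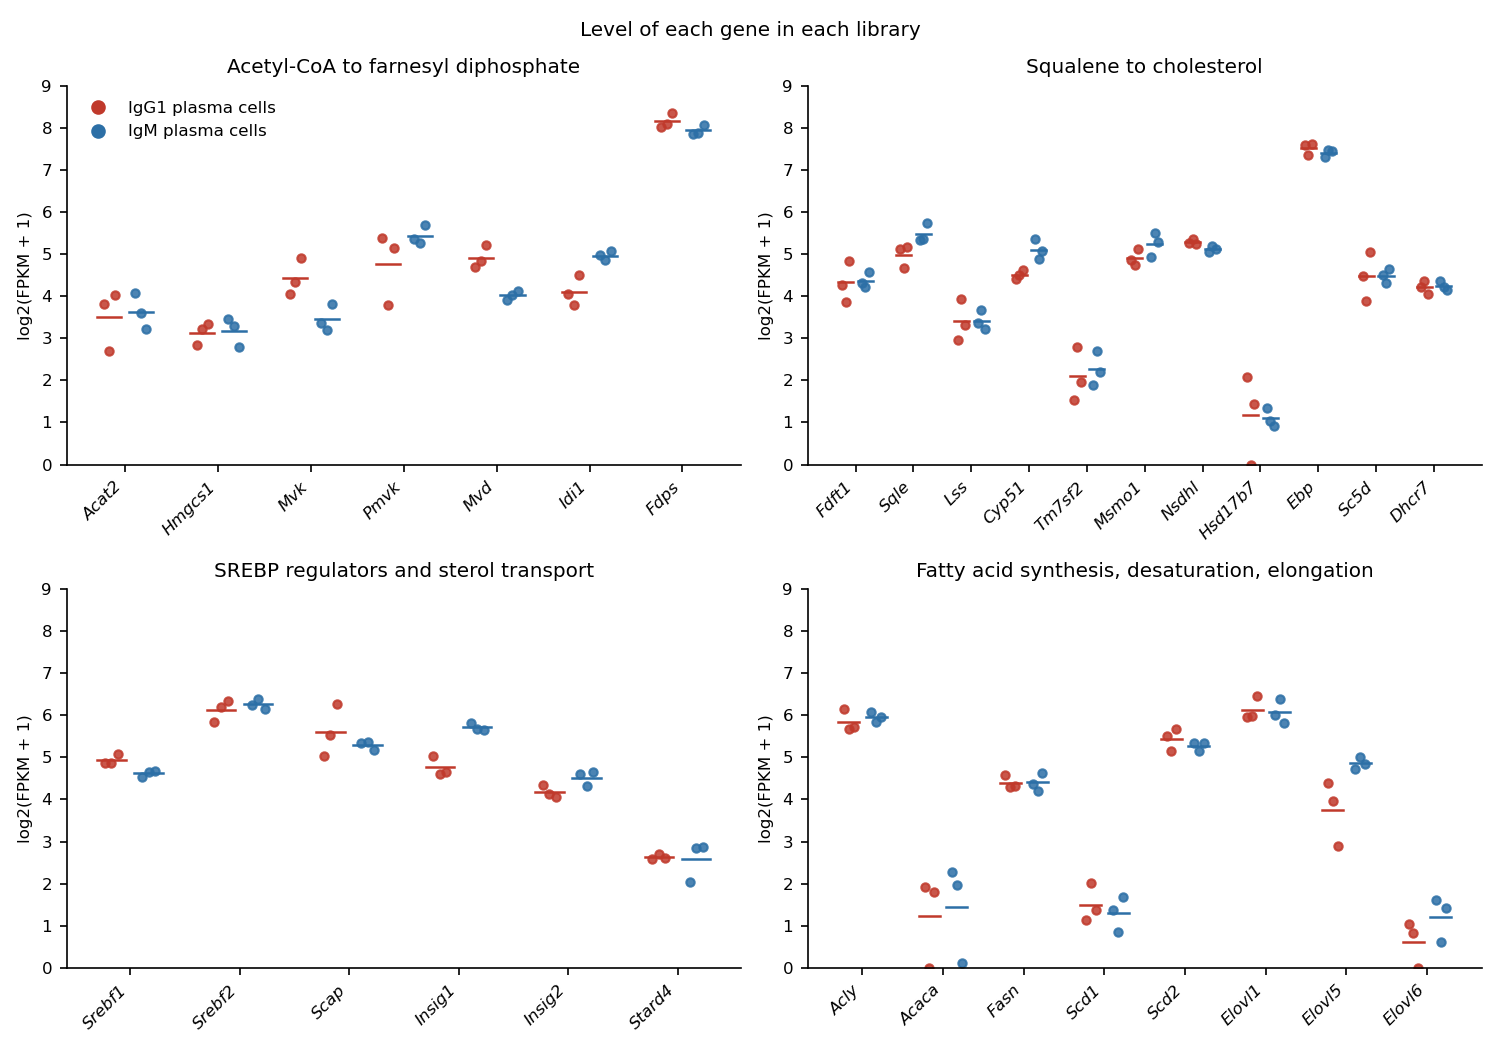
Each point is 1 library, as log2(FPKM + 1), with IgG1 plasma cells in red to the left of IgM plasma cells in blue, and the bar is the mean of 3 libraries. The groups separate for Mvd, Mvk, Insig1, Idi1, Cyp51, Sqle and Elovl5 and overlap for most of the other genes, and Hsd17b7, Acaca, Scd1 and Elovl6 lie under an FPKM of 5 in every library.

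Among the regulators, Insig1 had FPKM of 32.0, 23.5 and 24.0 in IgG1 libraries 1 to 3, against 55.4, 50.4 and 49.3 in IgM libraries 1 to 3. Every IgG1 library lay well below every IgM library. The means were 26.5 ± 4.77 in IgG1 and 51.7 ± 3.24 in IgM (SD, n = 3 each), and the log2 fold change was -0.95 (SE 0.19, limma adjusted p = 0.0165). The adjusted p of Insig1 was 0.0587, 0.106 and 0.0567 without IgG1 library 2, IgM library 1 and IgM library 3, and stayed under 0.05 without each of the other 3 libraries. Insig1 lies at chr5:28071363-28078662 of GRCm38 on the plus strand.

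Its paralogue Insig2, which holds SCAP back in the same way but is not driven by SREBP in the same manner, was at 19.3, 16.4 and 15.7 FPKM in IgG1 libraries, against 23.4, 18.9 and 24.0 in IgM libraries. These ranges overlapped, and the log2 fold change was -0.34 (95% interval -0.86 to 0.17). The Insig1 level was 1.66, 1.43 and 1.53 times that of Insig2 in the IgG1 libraries and 2.37, 2.67 and 2.06 times in the IgM libraries. Insig1 thus remained the more abundant of the pair, per length, in all 6 libraries, by a smaller factor in IgG1.

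Srebf2, the factor known mainly for sterol genes, was at 56.6, 72.4 and 80.3 FPKM in IgG1, against 75.3, 83.0 and 70.0 in IgM libraries. Srebf1, known mainly for fatty acid genes, was at 28.0, 28.3 and 32.7 in IgG1, against 22.3, 24.1 and 24.6 in IgM libraries. The Srebf1 libraries did not overlap, but the difference did not pass the test (log2 fold change 0.31, SE 0.20, limma adjusted p = 0.404). The Srebf2 level was 2.02, 2.55 and 2.45 times that of Srebf1 in IgG1 and 3.38, 3.44 and 2.84 times in IgM libraries. Exons of Srebf1 overlap those of Rai1 on the other strand, and strand use is not stated, so some of its reads are uncertain.

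Scap, the escort protein, ranged widely in IgG1 cells, at 31.6, 45.1 and 76.8 FPKM, against 39.9, 40.6 and 34.9 in IgM cells. IgG1 library 3 stood above all others and IgG1 library 1 below them. Stard4, a soluble carrier that moves cholesterol between membranes, was at 5.02, 5.48 and 5.08 in IgG1, against 3.11, 6.14 and 6.26 in IgM libraries. Neither gene passed the test (limma adjusted p = 0.552 for Scap and 0.952 for Stard4).

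The promoters of the 2 genes past the threshold, and of the 1 gene with the sterol element searched for, are shown because SREBP acts on such windows together with the factors NF-Y and Sp1. RefSeq windows of build GRCm38.p6, from 250 bases before to 50 bases after a start, were found for 26 of the 32 genes. The searched letters, on both strands, were TCACNCCAC for the sterol regulatory element, CCAAT for NF-Y and GGGCGG for Sp1, and no 2 matches overlap in these windows. Capitals mark the matches, read 5′ to 3′ along the gene. The windows are chr5:28071162-28071461, plus strand for Insig1, chr8:122443373-122443672, minus strand for Mvd and chr13:119690101-119690400, plus strand for Hmgcs1.
Insig1: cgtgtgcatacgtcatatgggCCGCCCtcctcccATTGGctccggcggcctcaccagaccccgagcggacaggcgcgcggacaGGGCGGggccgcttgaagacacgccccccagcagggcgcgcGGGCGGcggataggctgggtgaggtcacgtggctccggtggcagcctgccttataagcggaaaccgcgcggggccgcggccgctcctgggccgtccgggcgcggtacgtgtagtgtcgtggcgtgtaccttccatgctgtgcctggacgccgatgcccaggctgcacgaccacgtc
Mvd: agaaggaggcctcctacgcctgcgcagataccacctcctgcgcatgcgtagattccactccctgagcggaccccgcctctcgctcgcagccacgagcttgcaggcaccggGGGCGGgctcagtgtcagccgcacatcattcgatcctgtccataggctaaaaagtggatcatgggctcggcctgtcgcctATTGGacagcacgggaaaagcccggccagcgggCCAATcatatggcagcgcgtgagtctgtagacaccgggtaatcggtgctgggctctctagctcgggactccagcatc
Hmgcs1: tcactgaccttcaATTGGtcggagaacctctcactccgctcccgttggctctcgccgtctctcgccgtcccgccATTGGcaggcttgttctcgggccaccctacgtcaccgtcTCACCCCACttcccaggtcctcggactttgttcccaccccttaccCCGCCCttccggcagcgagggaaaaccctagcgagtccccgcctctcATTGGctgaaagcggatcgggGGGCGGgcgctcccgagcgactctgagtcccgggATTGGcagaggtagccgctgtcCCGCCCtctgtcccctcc

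In the Insig1 window GGGCGG occurred 3 times and CCAAT 1 time. Mvd had 1 GGGCGG and 2 CCAAT, and Hmgcs1 had the sterol element at bases 114 to 122 with 4 CCAAT and 3 GGGCGG. The sterol element occurred in 1 of the 26 genes (3.85%), against 1.42% of the 7031 tested genes with a window and 1.44% of all 27025 genes with one. CCAAT occurred in 22 of the 26 (84.6%), against 44.0% of those tested genes and 41.1% of all those genes, and GGGCGG in 21 (80.8%), against 70.8% and 38.2%. Genes may have several windows, and 35 windows belong to the 26 genes. By window, CCAAT occurred in 23 of the 35 (65.7%), against 37.4% of all 32851 windows, and GGGCGG in 26 (74.3%), against 35.7%. The CCAAT share covers Insig1 and Mvd, which moved in opposite directions, as well as genes that did not pass the test.

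In the mevalonate part of the route, 1 of 7 genes passed the test, against 6.02% of all genes tested, and so few genes do not set this part apart. That gene, Mvd, makes isopentenyl diphosphate, the building block of sterols, dolichol and protein prenyl groups. Its FPKM was 24.99, 27.6 and 36.4 in IgG1 libraries, against 13.9, 15.4 and 16.5 in IgM libraries, with no overlap. The means were 29.6 ± 5.96 in IgG1 and 15.3 ± 1.30 in IgM (SD, n = 3 each), and the log2 fold change was 0.90 (SE 0.24, limma adjusted p = 0.0457). The call on Mvd was narrow. It held without IgG1 library 1 (adjusted p = 0.0448), and the adjusted p was 0.0826 and 0.117 without IgG1 libraries 2 and 3 and 0.200, 0.108 and 0.110 without IgM libraries 1, 2 and 3. Mvd lies at chr8:122433601-122443422 of GRCm38 on the minus strand.

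Mvk, mevalonate kinase, which acts earlier in the same chain, was at 15.6, 19.2 and 29.3 FPKM in IgG1, against 9.32, 8.23 and 13.1 in IgM libraries. Groups did not overlap and the ratio of means was 2.09, but the gene missed the threshold (log2 fold change 0.97, SE 0.31, limma adjusted p = 0.0868). Pmvk, phosphomevalonate kinase, stands between those enzymes in the chain and was at 41.1, 12.9 and 34.3 in IgG1, against 39.8, 37.8 and 50.4 in IgM libraries. IgG1 library 2 was far below the other 5 libraries for this gene.

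Idi1, which isomerises isopentenyl diphosphate in the step after Mvd, had the opposite pattern to Mvd. Its FPKM was 15.5, 12.8 and 21.7 in IgG1, against 30.7, 27.9 and 32.5 in IgM libraries, without overlap. Its means were 16.7 ± 4.57 in IgG1 and 30.4 ± 2.31 in IgM (SD, n = 3 each), and the 1.82-fold lower level in IgG1 missed the threshold (log2 fold change -0.86, SE 0.25, limma adjusted p = 0.0618). The gene passed it in 4 of 18 alternatives, among them the fit without IgG1 library 3 (adjusted p = 0.0432).

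Fdps, which makes farnesyl diphosphate, was the most abundant of the 32 genes, at 258, 274 and 326 FPKM in IgG1, against 231, 237 and 269 in IgM libraries. These overlapped, with a log2 fold change of 0.21 (95% interval -0.06 to 0.49). Its exons overlap those of Gm43738 on the same strand. The entry enzymes were low: Hmgcs1, which makes HMG-CoA, averaged 7.86 ± 1.52 in IgG1 and 8.24 ± 2.07 in IgM, and Acat2, the thiolase before it, 11.3 ± 5.20 in IgG1 and 11.7 ± 3.78 in IgM (SD, n = 3 each). Summed over Hmgcs1, Mvk, Pmvk, Mvd, Idi1 and Fdps, the FPKM was 362, 354 and 457 in IgG1, against 335, 335 and 388 in IgM libraries. Without Fdps the sums were 103, 80.8 and 131 in IgG1 and 104, 98.1 and 119 in IgM libraries. The sums overlapped in both cases, while single enzymes within them lay on either side.

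**Figure D2:**
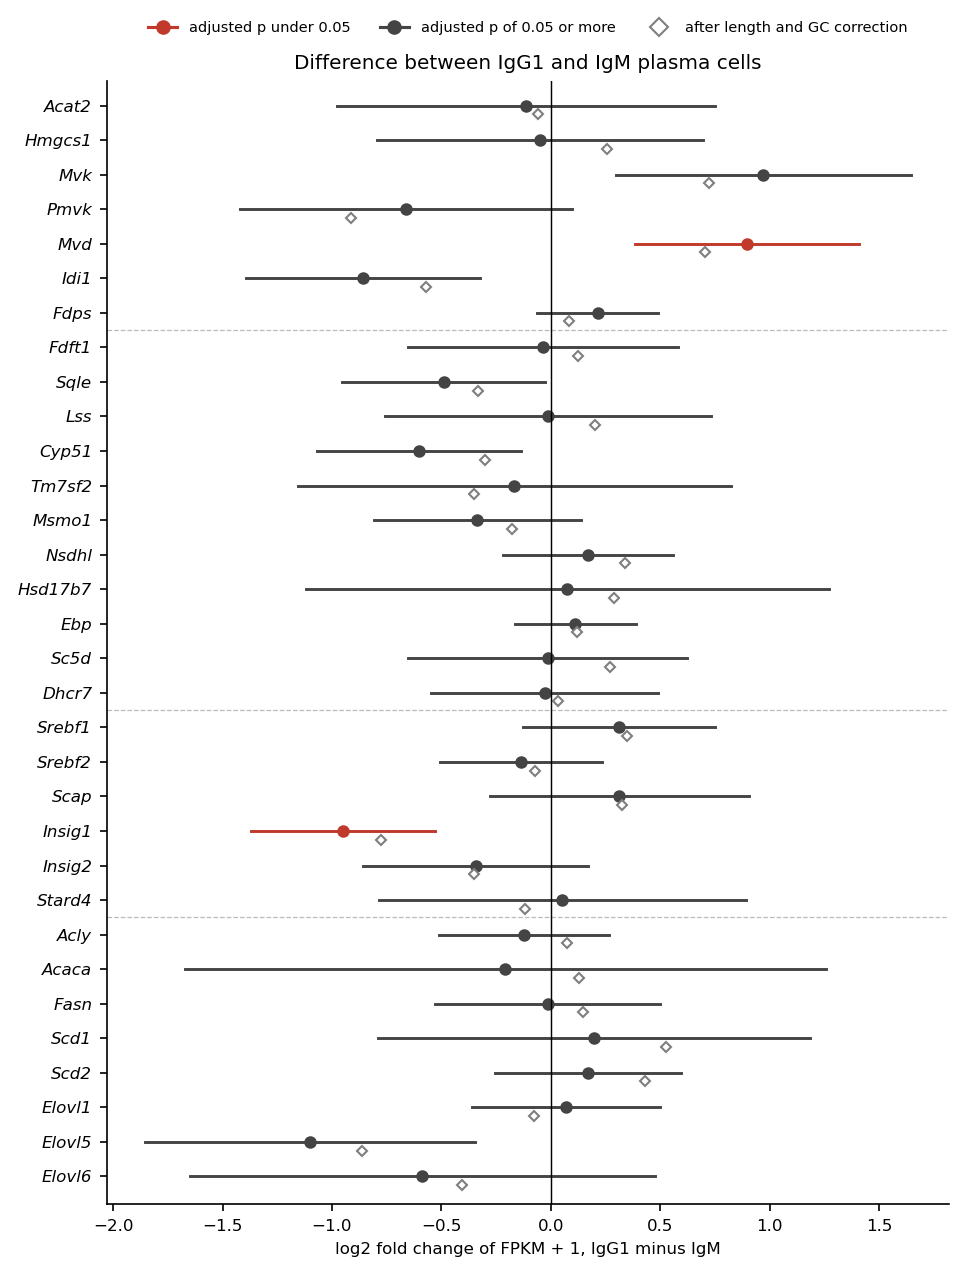
Filled circles are log2 fold changes of FPKM + 1, IgG1 minus IgM, with 95% intervals from limma, and open diamonds are the values after each library's trend with transcript length and GC content was removed. Genes run in pathway order with dashed lines between the 4 groups, and the intervals of Insig1 and Mvd, in red, are the 2 with an adjusted p under 0.05.

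From squalene to cholesterol, 0 of 11 genes passed the test, against 6.02% of all genes tested. Sqle and Cyp51, of the middle of the route, did not overlap between the groups and were lower in IgG1. Cyp51, which removes a methyl group from lanosterol, was at 20.2, 21.7 and 23.6 FPKM in IgG1, against 40.2, 28.6 and 32.9 in IgM libraries (log2 fold change -0.60, SE 0.21, limma adjusted p = 0.121). Sqle, squalene epoxidase and a rate-limiting step, was at 34.1, 24.5 and 35.0 in IgG1, against 39.3, 39.8 and 53.0 in IgM libraries (-0.49, SE 0.21, limma adjusted p = 0.203). Exons of Cyp51 overlap those of Akap9 on the other strand. Msmo1, the methylsterol oxidase that follows Cyp51, had 27.9, 25.7 and 34.1 in IgG1, against 29.6, 44.6 and 38.0 in IgM libraries, which overlapped.

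Ebp, the sterol isomerase, was the most abundant enzyme of this stretch, at 191, 163 and 196 FPKM in IgG1, against 157, 178 and 174 in IgM libraries. Nsdhl, a sterol dehydrogenase, was at 37.3, 40.4 and 37.2 in IgG1, against 32.2, 35.8 and 33.6 in IgM libraries, without overlap but by a log2 fold change of only 0.17 (SE 0.18, limma adjusted p = 0.630). Fdft1, squalene synthase, averaged 19.9 ± 7.20 in IgG1 and 19.7 ± 2.64 in IgM, and its exons overlap those of Ctsb. Sc5d, a sterol desaturase, averaged 22.5 ± 9.09 in IgG1 and 21.6 ± 2.58 in IgM, and Dhcr7, a late reductase of the route, 17.6 ± 1.89 in IgG1 and 17.9 ± 1.43 in IgM (SD, n = 3 each). These 3 means differed by less than the spread between libraries. Lss, which closes the sterol ring, averaged 10.05 ± 3.83 in IgG1 and 9.81 ± 1.75 in IgM. Tm7sf2, a sterol reductase, averaged 3.58 ± 2.13 in IgG1 and 3.94 ± 1.45 in IgM, and its exons overlap those of Vps51 on the same strand. Hsd17b7, a ketosteroid reductase, was at 3.20, 0 and 1.71 in IgG1, against 1.54, 1.04 and 0.872 in IgM libraries. The summed FPKM of these 11 genes was 380, 343 and 415 in IgG1, against 372, 399 and 407 in IgM libraries, and the sums overlapped.

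In fatty acid synthesis, 0 of 8 genes passed the test, against 6.02% of all genes tested. Elovl5, which elongates polyunsaturated fatty acids, had the lowest log2 fold change of the 32 genes. Its FPKM was 20.1, 14.7 and 6.48 in IgG1, against 25.3, 31.1 and 27.8 in IgM libraries, so the groups did not overlap and the IgG1 libraries spread over a wide range. The log2 fold change was -1.10 (SE 0.35, limma adjusted p = 0.0838). Without IgG1 library 3 it was -0.67 (adjusted p = 0.148), and without IgG1 library 1 it was -1.42 (adjusted p = 0.0366). Elovl6, which elongates saturated chains, was at 1.05, 0.781 and 0 in IgG1, against 2.03, 0.516 and 1.69 in IgM libraries.

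The enzymes that start and build the chain overlapped between the isotypes. Acly, which makes cytosolic acetyl-CoA from citrate, was at 69.9, 49.9 and 51.6 FPKM in IgG1, against 67.1, 56.6 and 61.3 in IgM libraries. Fasn, fatty acid synthase, was at 22.9, 18.5 and 18.8 in IgG1, against 19.8, 17.5 and 23.7 in IgM libraries, with a log2 fold change of -0.01 (95% interval -0.53 to 0.50). Acaca, the acetyl-CoA carboxylase between them, was low and uneven at 2.78, 0 and 2.49 in IgG1, against 3.83, 2.91 and 0.0749 in IgM libraries. In each group 1 library was at or near 0, and at the depth estimated above the other values of Acaca stand for about 357 to 574 fragments, against 0 and 12 in those libraries. Elovl1, which makes very long chains, was at 61.1, 62.8 and 87.3 in IgG1, against 63.5, 82.2 and 55.4 in IgM libraries, and its exons overlap those of Cdc20.

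Of the pair of stearoyl-CoA desaturases, Scd2 was the more abundant in every library. Its FPKM was 44.3, 34.7 and 50.3 in IgG1, against 39.5, 34.4 and 39.8 in IgM libraries. Scd1, the form known from liver, was at 1.19, 3.01 and 1.58 in IgG1, against 1.603, 0.811 and 2.197 in IgM libraries. Scd2 was 37.2, 11.5 and 31.8 times as high as Scd1 in IgG1 and 24.6, 42.4 and 18.1 times in IgM libraries, with overlap. The summed FPKM of the 8 genes was 223, 184 and 219 in IgG1, against 223, 226 and 212 in IgM libraries.

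The fold changes of the 32 genes followed the GC content of their transcripts. Spearman rho between fold change and GC content was 0.50 over the 32 genes and 0.27 over the 8765 tested genes with a known transcript, and with transcript length it was 0.03 and -0.36. These are descriptions across genes that share the same 6 libraries. Mvk and Mvd had a GC content of 58.8% and 59.3%, and Idi1, Elovl5, Cyp51, Insig1 and Sqle had 41.9%, 44.8%, 46.2%, 48.2% and 49.0%. With each library's trend with length and GC content removed, Insig1 was at -0.78 (limma adjusted p = 0.0462) and Mvd at 0.70 (adjusted p = 0.115). Mvk was then at 0.72, Idi1 at -0.57, Elovl5 at -0.86, Cyp51 at -0.30 and Sqle at -0.33, each closer to 0 than before and none past the threshold. After that correction rho with GC content was 0.29 over the 32 genes and 0.00 over all genes, and rho with length was 0.39 and -0.03.

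**Figure D3:**
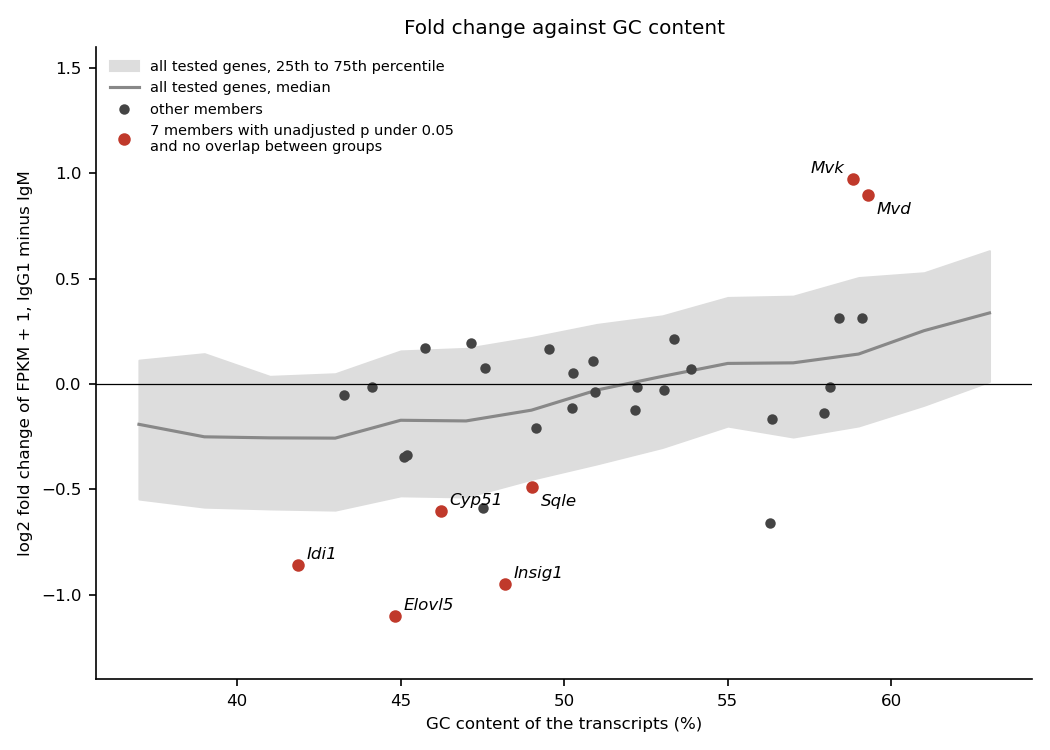
The x axis is the GC content of the transcripts in percent and the y axis the log2 fold change of FPKM + 1, IgG1 minus IgM; the grey line and band are the median and the 25th to 75th percentile of all tested genes in bins of GC content. The red points Mvk and Mvd lie at the GC-rich end above the band, and Idi1, Elovl5, Cyp51, Insig1 and Sqle lie at the GC-poor side below the grey line.

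Other genes of lipid metabolism were read from further lists, against the 6.02% of all genes that passed. Of 22 other genes of fatty acid synthesis, elongation, desaturation and activation, 1 was higher and 2 lower (median -0.01). Fads3, a desaturase known to act on sphingoid bases, was 3.76-fold higher in IgG1, at 20.3, 22.7 and 28.9 FPKM, against 5.39, 6.90 and 6.84 in IgM libraries (log2 fold change 1.75, SE 0.28, limma adjusted p = 0.00670). It kept an adjusted p under 0.05 without any 1 library (at most 0.0401) and after the correction for length and GC content (1.73, adjusted p = 0.00804). With no limit on FPKM its adjusted p was 0.0635, and without the intensity trend in limma it was 0.0651. Acsl1, which activates long-chain fatty acids, was at 0.0646, 0 and 0.0483 in IgG1, against 2.32, 3.73 and 3.33 in IgM libraries (-1.98, SE 0.42, limma adjusted p = 0.0203). Acsl1 met the limit on FPKM through the 3 IgM libraries alone, where it had to differ. With no such limit its adjusted p was 0.0635, as for Fads3, and only 6 of all genes passed in that fit. The log2 fold change of Acsl1 was -4.56 with a pseudocount of 0.1 and -0.69 with a pseudocount of 5. Its adjusted p was 0.0558 without IgG1 library 2 and 0.0863, 0.0786 and 0.0861 without IgM libraries 1, 2 and 3. Idh1, a cytosolic source of NADPH, was at 10.1, 9.15 and 3.79 in IgG1, against 18.8, 24.4 and 17.9 in IgM libraries (-1.38, SE 0.36, limma adjusted p = 0.0439). Its call held without IgG1 library 1, and without any other library the adjusted p was 0.0635 to 0.157. After the correction for length and GC content Idh1 was at -1.17 (adjusted p = 0.0894).

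Of 29 genes of glycerophospholipid and triglyceride synthesis, 1 was higher and 0 lower (median 0.14). Agpat3, an acyltransferase of phosphatidic acid and phospholipid synthesis, was at 32.0, 27.1 and 45.7 FPKM in IgG1, against 14.7, 15.5 and 20.2 in IgM libraries (log2 fold change 0.99, SE 0.25, limma adjusted p = 0.0406). Without any 1 library its adjusted p was 0.0532 to 0.178. Of 19 genes of other sterol steps and isoprenoid branches 0 passed in limma, 3 had an unadjusted p under 0.05, a mark that 22.2% of all tested genes reached, and the median was 0.11. The most abundant were Lbr, which also has sterol reductase activity (145 ± 9.69 in IgG1 and 129 ± 6.54 in IgM), and the dolichol synthesis gene Dhdds (104 ± 9.94 in IgG1 and 101 ± 4.62 in IgM). Of 22 genes of sterol uptake, transport, storage and efflux 0 passed in limma, 4 had an unadjusted p under 0.05, against the same 22.2%, and the median was -0.23. The most abundant were Tmem97, an ER protein that binds NPC1 (253 ± 41.9 in IgG1 and 191 ± 19.8 in IgM), and the lysosomal cholesterol carrier Npc2 (134 ± 10.9 in IgG1 and 132 ± 8.86 in IgM, SD, n = 3 each).

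**Figure D4:**
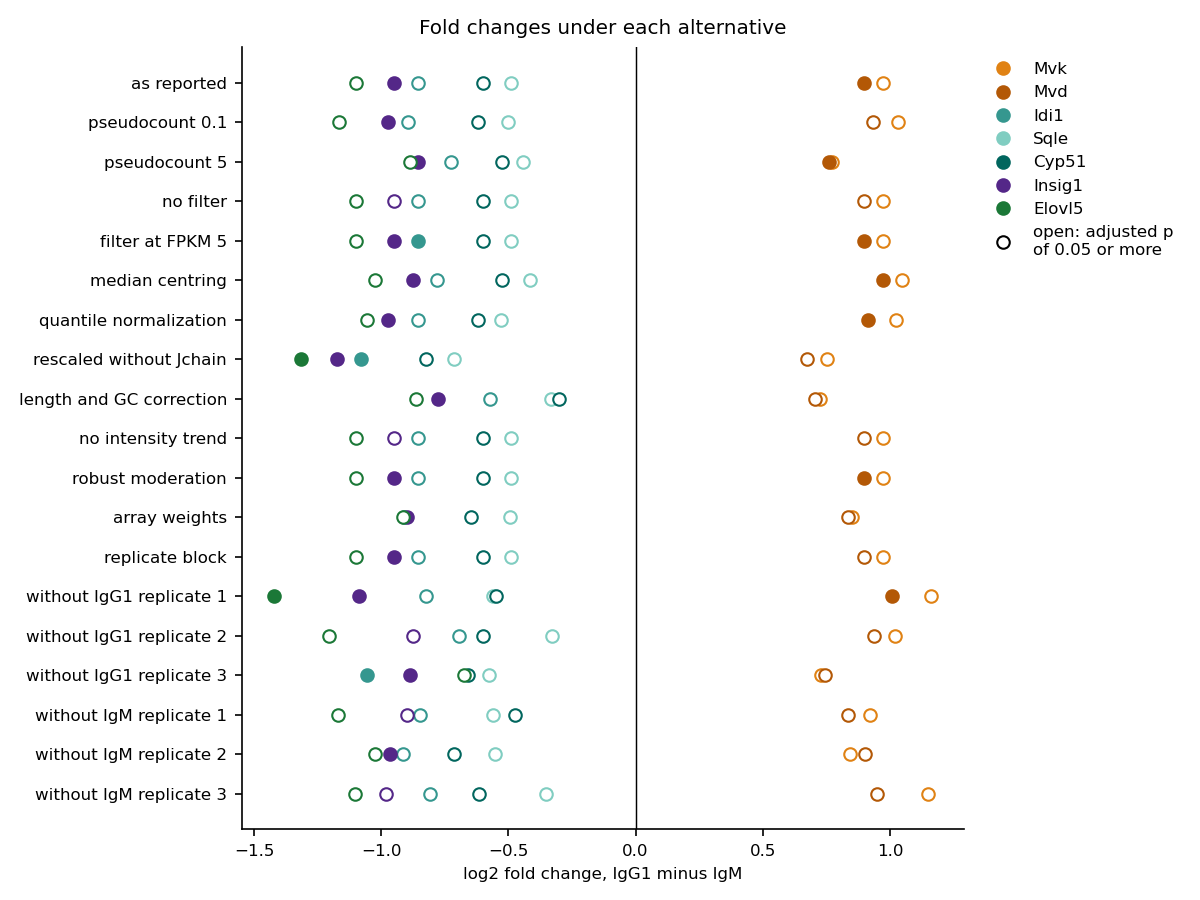
Each row is 1 setting of the test and each circle the log2 fold change, IgG1 minus IgM, of 1 of 7 genes, filled where the adjusted p was under 0.05. All 7 genes keep their direction in every setting. Their groups do not overlap, so only the normalizations and the length and GC correction could have changed a direction. Insig1 is filled in 13 of 18 alternatives and Mvd in 6, and Mvk, Cyp51 and Sqle are filled in none.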

How the data were processed

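The 6 libraries hold RNA of sorted splenic plasma cells. Per the labels' protocols, full-length cDNA was made with a SMART-Seq HT kit and libraries by Nextera XT tagmentation. The deposited values are FPKM, per the file headers. Per the submitters' processing notes, reads were processed with Cuffdiff and Cufflinks 2.2.1, Bowtie2 2.3.5.1 and TopHat2 2.1.1 on build mm10. The sources used here give no annotation and no scaling between libraries. FPKM divides by transcript length and depth, so changes in composition or in coverage by length and base content move it.

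From these, genes with FPKM of at least 1 in at least 3 libraries (9087) were tested as log2(FPKM + 1) with limma 3.58.1 in R 4.3.3 (eBayes with an intensity trend, Benjamini-Hochberg adjustment, threshold 0.05). A fold change on this scale understates the change of low genes. Ratios given as fold are of mean FPKM. Transcript length and GC content are medians over GENCODE vM21 basic transcripts of GRCm38 (the assembly of mm10), found for 96.5% of tested genes, and the length and GC correction subtracts a loess surface (span 0.5) from each library. Depth was estimated from the most frequent low value of FPKM times length, in bins on a log scale, taken as a single fragment, and is therefore approximate. Promoters are from RefSeq.

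The 32 genes, the lists, tests and alternatives were chosen with earlier results of these data known. Values per library were given for genes with adjusted p under 0.05, or unadjusted p under 0.05 and no overlap. They were also given for the most abundant genes and for paralogues. Other genes given per library were chosen after their values were seen. So were the markers Jchain, Xbp1, Tnfrsf17, Cd68, Cd79a, Cd79b, Adgre1, Csf1r, Cd14 and Pax5. From each other list up to 4 genes per direction past the threshold were named or, with none, the 2 most abundant; the result of 1 list is not reported here. Genes that follow Insig1 and Mvd across libraries were planned but are not given, since both separate the groups and a correlation over 6 libraries would restate that. Isotype was taken from the labels and not checked against immunoglobulin transcripts here.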

Additional observations from a re-analysis of the deposited data

How the results depend on the processing

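Insig1, Mvd, Mvk, Idi1, Cyp51, Sqle and Elovl5 kept their direction in all 18 alternatives, and so did Fads3, Idh1 and Agpat3 (Acsl1 in 17, since it fell under the filter at an FPKM of 5). The groups did not overlap for any of these genes. Only median centring, quantile normalization, rescaling without Jchain and the length and GC correction could therefore have changed a direction. Of the 32 genes 2 passed the threshold as reported. The count was 1 with a pseudocount of 0.1, 1 after the length and GC correction, 0 without the filter and 0 without the intensity trend. Without the filter 8 of the 32 genes had an unadjusted p under 0.05, against 2189 of all 14922 genes in that fit. Without the intensity trend 6 of the 32 did, against 1725 of all 9087 genes. With 1 library left out, 0 to 3 of the 32 genes passed the threshold (0 without IgG1 library 2, IgM library 1 or IgM library 3). Over all genes the count of 547 became 6 without the filter, 252 after the correction, 8 without the intensity trend and 108 to 645 when 1 library was left out (174 and 200 without IgG1 libraries 2 and 3, 108 and 230 without IgM libraries 1 and 3). The cause was not tested. The median of the 32 genes, -0.03, was 0.0428 after median centring, -0.25 after rescaling without Jchain and 0.0786 after the correction, and -0.10 to -0.0069 when 1 library was left out. The labels do not say whether same-numbered libraries share a host, and their deviations from the group means had correlations of 0.101, -0.031 and -0.001, so they were not treated as pairs. With the replicate block 1 of the 32 genes passed and 586 over all genes, and Mvd had an adjusted p of 0.0540. Low values, such as those of Acaca, Hsd17b7, Scd1 and Elovl6, limit what the test can show for these genes.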
